A study of Mus musculus with 30 samples.

Results

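The genes described are the TAM receptors, the ligands that engage MERTK and the protease that sheds it: *Mertk*, *Tyro3*, *Axl*, *Gas6*, *Pros1*, *Tub*, *Tulp1*, *Lgals3* and *Adam17*. They were taken by symbol, and all 9 were found once in each table of 55573 genes. RNA was sequenced from 30 mouse samples, in the retinal pigment epithelium (RPE) at postnatal day 25 and in bone marrow-derived macrophages (BMDMs). The RPE samples were 6 from C57BL/6 mice (B6 WT), 6 from the *Mertk*-/-V1 line, 3 from *Mertk*-/-V2 and 3 from *Mertk*-/-V3, and BMDMs had 3 samples for each genotype. RPE came from the dissected eyecup, and BMDMs were grown from adult marrow in medium conditioned by L929 cells. The question put to these genes was which of them differed when *Mertk* was deleted in 3 separate ways.

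The lines differ in more than the exon they lack. *Mertk*-/-V1 (V1) has a deletion of exon 17 made in 129P2 embryonic stem cells. It still holds a neomycin cassette, and after backcrossing to C57BL/6J it carries a 129P2 segment of chromosome 2 around *Mertk*. *Mertk*-/-V2 (V2) has a deletion of exon 18, made from a floxed allele in C57BL/6NJ embryos with a tamoxifen-inducible Cre that was later bred out. *Mertk*-/-V3 (V3) has a CRISPR deletion of exons 3 and 4 made in C57BL/6NJ eggs. By the study's SNP typing both V2 and V3 carried C57BL/6J and C57BL/6NJ genomes, with more C57BL/6NJ in V3. The study lists its C57BL/6 strain as C57BL/6J, so in V2 and V3 the deletion and the substrain cannot be told apart. Animals of both sexes were used. The 3 knockouts are compared with the same B6 WT samples, so their differences from B6 WT share those controls.

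TYRO3, AXL and MERTK are receptor tyrosine kinases that recognise phosphatidylserine on dying cells and on shed photoreceptor tips. They do so through the bridging proteins GAS6 and protein S (gene *Pros1*), which bind the lipid after vitamin K-dependent carboxylation. In the RPE, MERTK drives the daily uptake of photoreceptor outer segment tips, and in macrophages it drives the uptake of apoptotic cells. TUB, TULP1 and galectin-3 (gene *Lgals3*) have been described as further ligands of MERTK, and ADAM17 is the membrane protease that cleaves the MERTK ectodomain from the cell surface.

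The exons that define the lines were read from the GENCODE release M21 transcript Mertk-201 on the plus strand of chromosome 2 (GRCm38), which has 19 exons and 4302 bases. The exon numbers of the lines are taken to follow this transcript. Exon 17, at chr2:128792946-128793105, is shown first because it holds the DFG motif of the kinase, whose 9 bases are in capitals (residue 736 of 994). The next 3 sequences are exon 18 (chr2:128794442-128794578), exon 3 (chr2:128736563-128736663) and exon 4 (chr2:128738196-128738369), 5′ to 3′.
Exon 17, absent in V1: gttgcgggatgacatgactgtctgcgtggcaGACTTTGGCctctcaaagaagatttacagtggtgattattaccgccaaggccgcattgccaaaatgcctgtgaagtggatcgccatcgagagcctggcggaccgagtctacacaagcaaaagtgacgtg
Exon 18, absent in V2: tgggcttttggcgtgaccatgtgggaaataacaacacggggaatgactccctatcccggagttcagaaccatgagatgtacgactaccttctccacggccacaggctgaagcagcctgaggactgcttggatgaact
Exon 3, absent in V3: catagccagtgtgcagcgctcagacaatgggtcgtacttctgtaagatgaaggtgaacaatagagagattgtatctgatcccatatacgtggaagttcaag
Exon 4, absent in V3: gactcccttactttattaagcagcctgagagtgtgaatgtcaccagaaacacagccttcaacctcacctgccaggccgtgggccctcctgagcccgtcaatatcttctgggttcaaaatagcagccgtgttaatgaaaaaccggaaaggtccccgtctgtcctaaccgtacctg

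None of the 3 deletions removes a whole number of codons. If the flanking exons are joined, V1 loses 160 bases and meets its first stop codon after 729 codons, in exon 18, with 1 exon behind it. V2 loses 137 bases and stops after 779 codons in exon 19, the last exon. V3 loses 275 bases and stops after 165 codons, in exon 5, with 14 exons behind it. The deposited values count reads over the whole gene, so reads from the remaining exons enter them; exon 17 is 3.72% of the transcript and exon 18 is 3.18%.

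**Figure D1:**
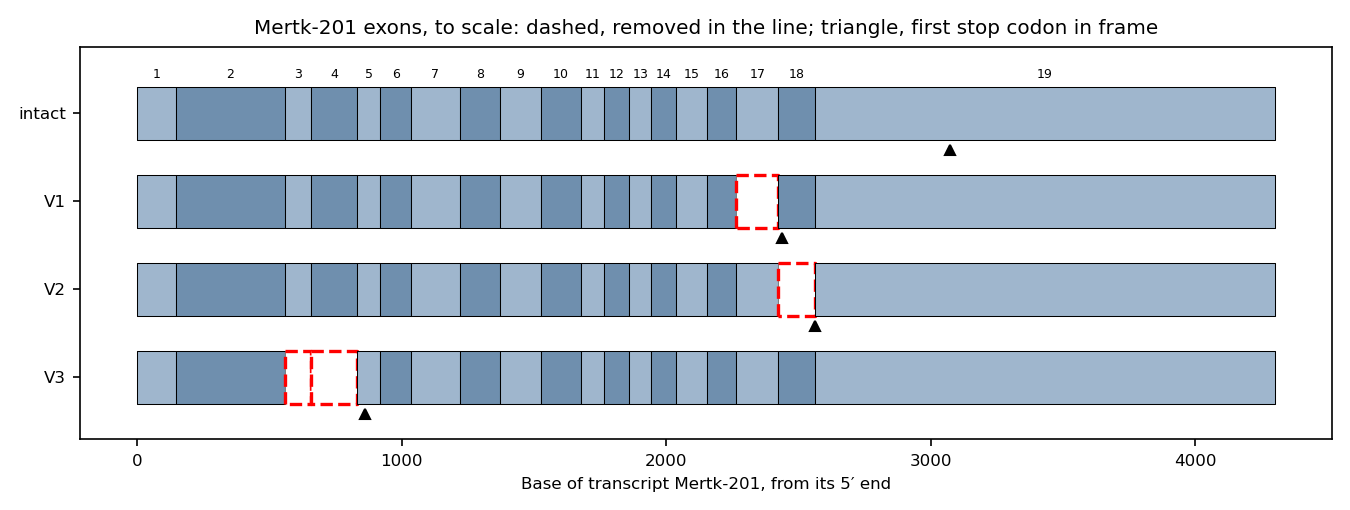
Exons of transcript Mertk-201 drawn to scale along the transcript (horizontal axis, bases from its 5′ end) for the intact gene and the 3 lines. Dashed boxes are the exons a line lacks and triangles mark the first stop codon in frame, which lies in exon 18 in V1, in exon 19 in V2 and in exon 5 in V3.

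The values are deposited gene counts, each divided by a size factor of its library, and are called normalised counts. The libraries held 14137666 to 34124049 reads in RPE and 16629659 to 25653814 in BMDMs. All 7 RPE markers and all 9 rod photoreceptor markers were found in every RPE group, and the rod markers summed to between 34743 and 867939 normalised counts over the 18 RPE libraries. V1 replicates 5 and 6 had the highest rod sums, 867939 and 514786, and the lowest RPE marker sums, 236425 and 183008. V3 replicate 1 had the third highest rod sum, 408812, and an RPE marker sum of 268296. Replicates 4 to 6 exist only for B6 WT and V1, and their rod sums (132887 to 867939) were above those of replicates 1 to 3 of these genotypes (34743 to 123111). V1 replicate 3 stood apart in granulocyte markers, which summed to 1045 normalised counts there and to at most 113 in every other RPE library. In such bulk samples, fewer cells of a type and less RNA per cell cannot be told apart. In BMDMs all 6 macrophage markers were found and summed to 91054 to 98515 normalised counts, and 6 of 9 rod markers held at most 3 reads in every library.

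Differences were tested with limma on log2(normalised count + 1), with all genotypes of a tissue in the fit, and a gene passed with a Benjamini-Hochberg adjusted p under 0.05 over all genes tested. In RPE, *Mertk* RNA fell in V1 and V3, *Tyro3* RNA fell in V1, and none of the other 7 genes passed in any knockout. Of the 9 genes, 2 passed in V1, where 0.388% of all genes tested did. The count was 0 in V2 (0.069% of all genes; 0 at an unadjusted p under 0.05, and 0 by edgeR and by DESeq2) and 1 in V3 (0.069%). The median difference of the 9 genes was 0.12 in V1, 0.10 in V2 and 0.00 in V3 on the log2 scale, beside 0.02, 0.02 and -0.01 over all genes.

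*Mertk* in RPE had normalised counts of 2638, 3230 and 3924 (lowest, median and highest of 6) in B6 WT and of 919, 1070 and 1717 in V1. The V2 libraries held 5311, 3811 and 3565, and the V3 libraries 444, 1005 and 1106. Every V1 and V3 library lay below every B6 WT library, while V2 libraries lay among or above them. The fall in V1 was 2.76-fold, a log2 difference of -1.46 ± 0.20 (SE; limma, adjusted p = 0.00267). The fall in V3 was 4.01-fold, at -2.01 ± 0.25 on the log2 scale (limma, adjusted p = 0.00222). V2 differed from B6 WT by 0.39 ± 0.25 on the log2 scale (limma, 95% interval -0.14 to 0.92, adjusted p = 0.954). The knockouts therefore did not hold equal *Mertk* RNA: V2 was 5.26-fold above V3 (limma, adjusted p = 0.00113), the only one of the 9 genes to pass in that comparison, where 0.0743% of all genes passed. In a fit of V2 and V3 alone that difference had an adjusted p of 0.197.

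With replicates 1 to 3 of B6 WT and V1 alone, *Mertk* in V1 stood at -1.55 and its adjusted p was 0.201, and with replicates 4 to 6 alone it stood at -1.38 with an adjusted p of 0.301 (limma). With the replicate set as a term in the fit of V1 and B6 WT, the value was -1.46 with an adjusted p of 6.61e-04. In V3, *Mertk* kept its difference of -2.01 in a fit of only V3 and B6 WT, with an adjusted p of 0.0633. Against B6 WT replicates 4 to 6 alone the V3 difference was -1.86 (adjusted p = 0.196), and against replicates 1 to 3 it was -2.15 (adjusted p = 0.00706). Without V3 replicate 1, *Mertk* in V3 was at -1.59 (adjusted p = 0.00463).

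*Tyro3*, which encodes the TAM receptor that the RPE expresses beside MERTK, had normalised counts of 2765, 3303 and 4161 (lowest, median and highest of 6) in B6 WT RPE. In V1 they were 986, 1468 and 1871, and no V1 library reached the lowest B6 WT library. In V2 they were 3851, 2628 and 2783, and in V3 2145, 2983 and 3577, so both overlapped B6 WT. The fall in V1 was 2.49-fold, at -1.31 ± 0.17 on the log2 scale (SE; limma, adjusted p = 0.00131). V2 (-0.15, 95% interval -0.59 to 0.30) and V3 (-0.25, 95% interval -0.69 to 0.20) did not pass. V1 also lay 2.17-fold below the mean of V2 and V3 (limma, adjusted p = 0.007). *Tyro3* was the only one of the 9 genes to pass in that comparison, where 0.207% of all genes did, and *Mertk*, at -0.66 ± 0.20, had an adjusted p of 0.366.

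Within replicates 1 to 3, *Tyro3* in V1 was at -1.21 (limma, adjusted p = 0.0626), and within replicates 4 to 6 at -1.42 (adjusted p = 0.06). In a fit of V1, V2 and V3 alone, the difference of -1.12 from the mean of V2 and V3 had an adjusted p of 0.0589. The lowest *Tyro3* counts in V1, 986 and 996, were in replicates 5 and 6, the libraries highest in rod markers. Without them, *Tyro3* in V1 was at -1.09 ± 0.15 (limma, adjusted p = 0.00423) and *Mertk* at -1.37 ± 0.23 (adjusted p = 0.0169). Without V1 replicate 3, which was high in granulocyte markers, *Mertk* in V1 was at -1.58 (adjusted p = 0.00133) and *Axl* at 0.30 (adjusted p = 0.271), and *Tyro3* passed with an adjusted p of 0.00259. The level of *Tyro3* also moved with the RPE markers: over the 18 RPE libraries Pearson's r was 0.81 and Spearman's rho 0.88, and r was 0.90 after centring each genotype. These points share their scaling and the mixture of cells in each library. With the RPE marker level as a covariate the difference in V1 was -0.90 ± 0.10 for *Tyro3* (limma, adjusted p = 2.64e-04) and -1.06 ± 0.17 for *Mertk* (adjusted p = 0.00647). With the rod marker level as a covariate, *Tyro3* in V1 was at -1.26 ± 0.11 (adjusted p = 6.15e-06).

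*Axl* (chr7:25757273-25788705, minus strand), the TAM receptor gene that inflammation is known to induce, ranged from 1492 to 1854 in B6 WT RPE, from 1444 to 2191 in V1, from 1703 to 2070 in V2 and from 1508 to 2119 in V3. The groups overlapped. Over the 18 libraries its r with the macrophage markers was 0.47, and 0.17 after centring each genotype. Its log2 difference was 0.21 (95% interval -0.02 to 0.44) in V1, 0.16 (-0.12 to 0.44) in V2 and 0.06 (-0.22 to 0.34) in V3, with limma adjusted p-values of 0.752, 0.962 and 0.838. In all 3 lines the interval of this main fit ends below a log2 difference of 0.45, but that limit moved with the fit. With replicates 1 to 3 of B6 WT and V1 alone, the *Axl* intervals ended at 0.59 in V1, 0.62 in V2 and 0.52 in V3. With replicates 4 to 6 alone they ended at 0.46, 0.33 and 0.23.

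**Figure D2:**
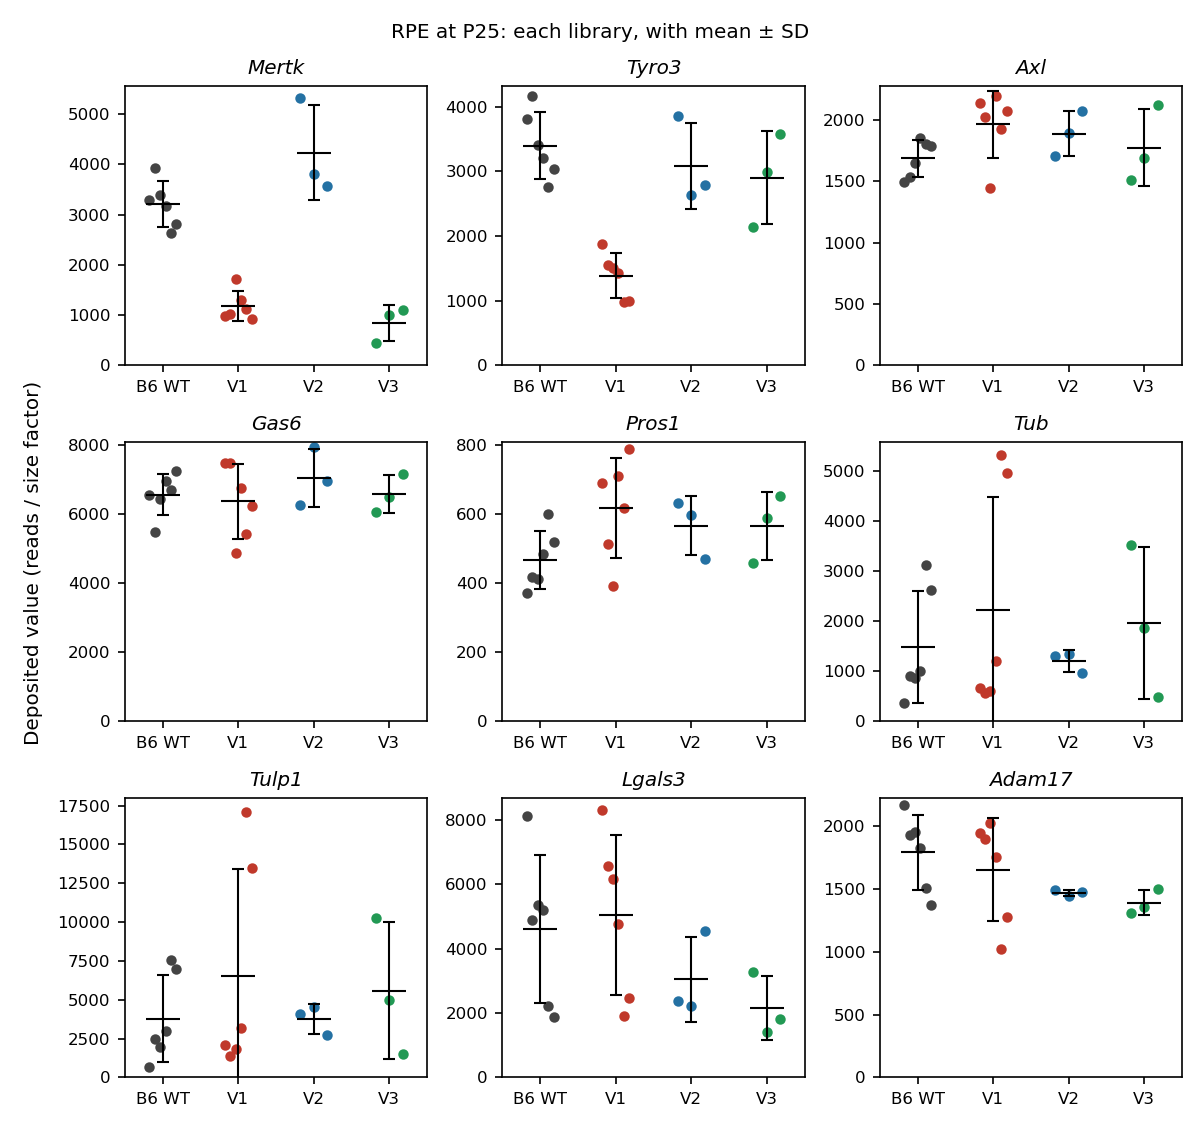
Normalised counts (vertical axes, reads divided by size factor, from 0) of the 9 genes in the 18 RPE libraries by genotype. Each point is a library, and lines with bars are the mean ± SD, cut at 0. *Mertk* is low in V1 and V3, *Tyro3* in V1, and *Tub* and *Tulp1* spread widely within B6 WT, V1 and V3.

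Neither bridging ligand passed against B6 WT in the main fit in RPE. *Gas6* (chr8:13465374-13494490, minus strand) ranged from 4868 to 7943 normalised counts over the RPE libraries, and its differences lay between -0.06 (V1) and 0.10 (V2) on the log2 scale. *Pros1* (chr16:62854307-62929346, plus strand) ranged from 370 to 600 in B6 WT and from 390 to 787 in V1, a log2 difference of 0.38 with a 95% interval of 0.03 to 0.73. Its unadjusted p was 0.0342 and its limma adjusted p 0.686, so it did not pass. V2 and V3 stood at 0.28 each for *Pros1*, with 95% intervals of -0.15 to 0.71. With the replicate number as a block, *Pros1* was at 0.50 in V2 and 0.49 in V3 (limma, adjusted p = 0.165 and 0.065). With array quality weights it was at 0.41 in V2 (limma, adjusted p = 0.098) and passed in V3, at 0.43 (adjusted p = 0.00161).

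*Tub* (chr7:108950338-109034460, plus strand) and *Tulp1* (chr17:28351515-28365222, minus strand), members of the tubby family of which *Tulp1* is expressed in photoreceptors, were the most variable of the 9 genes in RPE. *Tulp1* had 697, 2733 and 7572 normalised counts (lowest, median and highest of 6) in B6 WT and 1396, 2646 and 17114 in V1. Its V2 values were 4054, 4563 and 2705 and its V3 values 10245, 4989 and 1536. *Tub* ran from 361 to 3126 in B6 WT, from 575 to 5309 in V1, from 963 to 1343 in V2 and from 494 to 3531 in V3. *Tub* shares 149 exon bases with *Ric3* on the other strand, which held 1416 to 3042 normalised counts. The 4 groups overlapped for both *Tub* and *Tulp1*, and the 2 highest libraries were V1 replicates 5 and 6. Both levels followed the rod markers: over 18 libraries r was 0.99 for *Tulp1* and 0.98 for *Tub*, against a rod list that does not hold them. Without V1 replicates 5 and 6, the difference in V1 turned from 0.28 to -0.65 for *Tub* and from 0.48 to -0.49 for *Tulp1*, with no pass in either fit. Without V3 replicate 1, the difference in V3 turned from 0.36 to -0.27 for *Tub* and from 0.59 to -0.04 for *Tulp1*, again with no pass. The 95% intervals of their differences from B6 WT reached from -1.70 to 2.41 on the log2 scale, so in that fit a change of a few fold in either direction lay within them. With the rod marker level as a covariate, *Tulp1* stood at 0.37 in V3 and passed (limma, adjusted p = 0.0344). In V2 against V3, *Tub* at -0.53 (adjusted p = 0.0201) and *Tulp1* at -0.44 (adjusted p = 0.00562) passed with that covariate only.

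*Lgals3* (chr14:47367751-47386160, plus strand), a lectin gene abundant in macrophages, and *Adam17* (chr12:21323509-21373632, minus strand) ran the other way. *Lgals3* had 1876, 5041 and 8112 normalised counts (lowest, median and highest of 6) in B6 WT and 1915, 5471 and 8320 in V1. Its V2 libraries held 2361, 2218 and 4552 and its V3 libraries 3269, 1399 and 1806. *Adam17* ranged from 1370 to 2166 in B6 WT, from 1021 to 2029 in V1, from 1442 to 1488 in V2 and from 1307 to 1499 in V3. The groups overlapped for both genes. Over the 18 libraries r with the rod markers was -0.65 for *Lgals3* and -0.85 for *Adam17*, and r of *Lgals3* with the macrophage markers was 0.16. In V3, *Lgals3* was at -1.01 (95% interval -2.08 to 0.06) and *Adam17* at -0.35 (-0.76 to 0.05) relative to B6 WT, and neither passed. With the rod marker level as a covariate, *Lgals3* in V3 was at -0.92 (limma, adjusted p = 0.121) and *Adam17* at -0.31 (adjusted p = 0.0688).

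These differences moved with the choice of B6 WT libraries as controls. Against B6 WT replicates 1 to 3 alone, V3 was lower for *Lgals3*, at -1.56 (limma, adjusted p = 0.0146), and for *Adam17*, at -0.54 (adjusted p = 0.00637), and 3 of the 9 genes passed. Rod marker sums were 34743 to 123111 in those B6 WT libraries and 58401 to 408812 in V3. The part of the rod RNA in this result was not tested. With B6 WT replicates 4 to 6 alone as controls, V3 was at -0.46 for *Lgals3* and -0.17 for *Adam17*, and 0 of the 9 genes passed by limma. V2 was at -1.05 for *Lgals3* and -0.46 for *Adam17* (adjusted p = 0.145 and 0.0508) with the first of these control sets, and at 0.05 and -0.08 with the second.

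**Figure D3:**
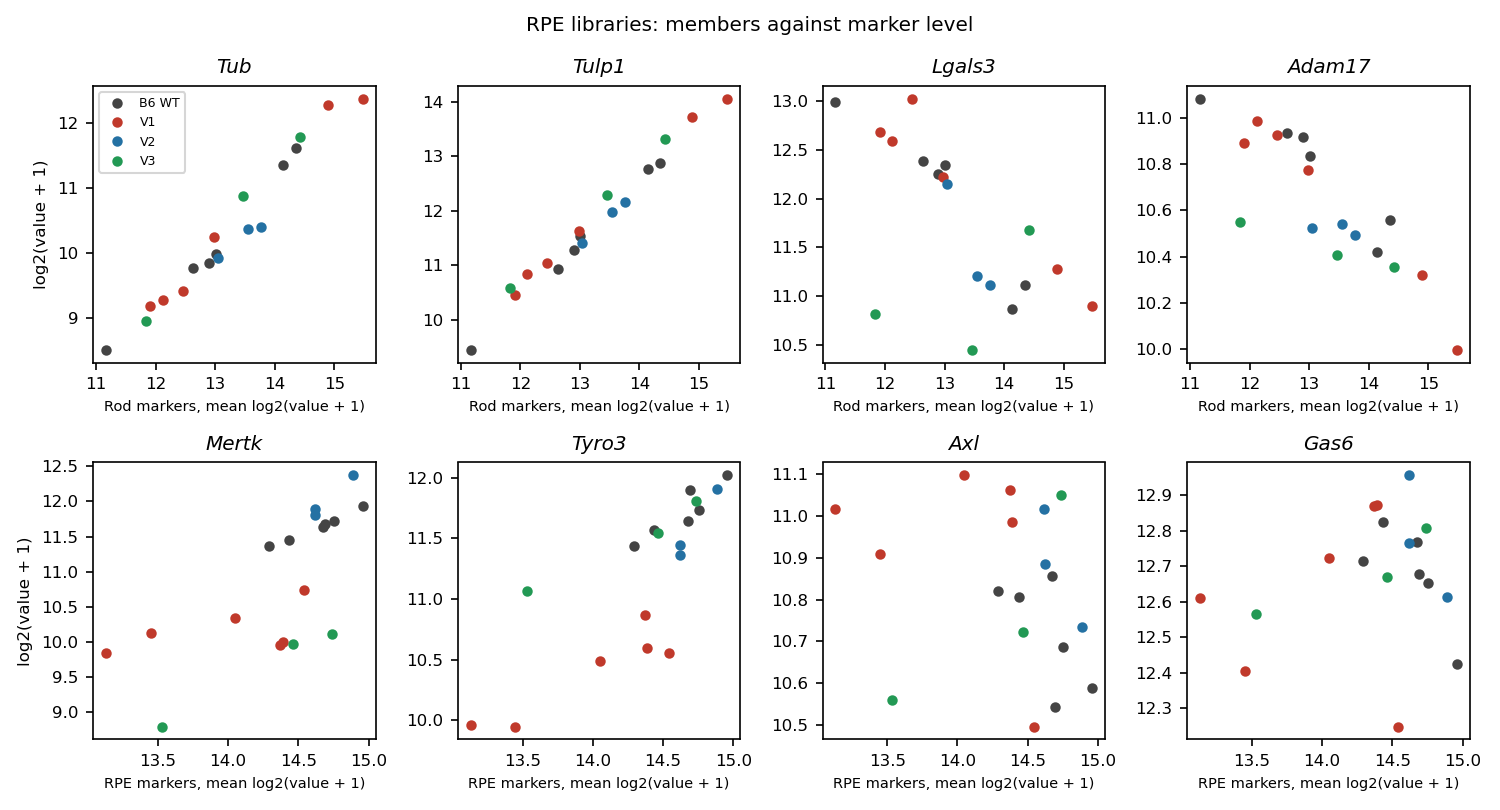
Levels in the 18 RPE libraries, log2(normalised count + 1) on the vertical axes. In the upper row *Tub*, *Tulp1*, *Lgals3* and *Adam17* are set against the mean log2 level of 9 rod markers, and in the lower row *Mertk*, *Tyro3*, *Axl* and *Gas6* against that of 7 RPE markers. Each point is a library, coloured by genotype. *Tub* and *Tulp1* rise with the rod markers (r = 0.98 and 0.99) and *Adam17* falls with them (r = -0.85). V1 libraries lie below the others for *Tyro3* at equal RPE marker level.

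In BMDMs, *Mertk* RNA fell in V1 and V3 and rose in V2, *Lgals3* RNA rose in V1, and the other genes tested did not pass against B6 WT. Only genes whose mean reached 10 normalised counts were tested, which left 6 of the 9, without *Tyro3*, *Tub* and *Tulp1*. Of these 6, 2 passed in V1 (7.07% of all genes tested), 1 in V2 (4.61%) and 1 in V3 (1.17%). The median difference of the 6 genes was 0.09 in V1, 0.03 in V2 and -0.05 in V3 on the log2 scale, beside -0.01, 0.00 and 0.01 over all genes.

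*Mertk* had 2414, 2649 and 2881 normalised counts in the B6 WT BMDM libraries. It had 847, 883 and 865 in V1, 3589, 3532 and 3579 in V2 and 651, 685 and 723 in V3. The 4 genotypes did not overlap, in the order V2, B6 WT, V1, V3. *Mertk* was 3.05-fold lower in V1, at -1.61 ± 0.06 on the log2 scale (SE; limma, adjusted p = 3.27e-09). It was 3.85-fold lower in V3, at -1.94 ± 0.06 (limma, adjusted p = 2.54e-10). In V2 it was 1.35-fold higher, at 0.43 ± 0.06 (limma, adjusted p = 0.00129). V2 stood 5.19-fold above V3 (limma, adjusted p = 1.64e-11) and V1 1.81-fold below the mean of V2 and V3 (adjusted p = 3.76e-07). *Mertk* was the only one of the 6 genes to pass in either comparison, beside 3.16% of all genes in V2 against V3 and 0.991% in V1 against the mean of V2 and V3.

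*Lgals3* was among the most abundant RNAs of the set in BMDMs, with 38940, 39665 and 39948 normalised counts in B6 WT and 47846, 48524 and 51476 in V1. V2 held 44743, 43435 and 33637 and V3 43196, 42986 and 45644. V1 and V3 lay above every B6 WT library, and V2 lay on either side of them. The rise in V1 was 1.25-fold, at 0.32 ± 0.09 on the log2 scale (SE; limma, adjusted p = 0.0409). This call was near the threshold: with each of the 12 libraries left out in turn the difference stayed between 0.29 and 0.34, but 9 of the 12 fits put the adjusted p above the threshold, up to 0.146. It was lost on leaving out any B6 WT, V1 or V3 library. Under TMM scaling it was at 0.29 (adjusted p = 0.0526).

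*Tyro3* was near the limit of detection in BMDMs, and the study describes it as not expressed in these cells. The B6 WT libraries held 6, 8 and 7 reads, the V2 libraries 5, 4 and 6 and the V3 libraries 9, 7 and 10, while V1 held 14, 18 and 13. As normalised counts these are 4.93, 6.52 and 6.84 in B6 WT, 16.44, 17.996 and 14.62 in V1, 6.07, 4.03 and 5.70 in V2, and 9.83, 7.46 and 8.03 in V3. Every V1 library lay above every other BMDM library. The gene was not tested in the main fit. The exact permutation test (two-sided) gave p = 0.1 for V1 against B6 WT, the smallest p that 3 against 3 libraries allow, and p = 0.0238 for V1 against V2 and V3 (3 against 6), again the smallest it allows. On the recovered reads, edgeR put V1 at 1.42 on the log2 scale against B6 WT (adjusted p = 0.0185) and at 1.29 against the mean of V2 and V3 (adjusted p = 0.036). Against B6 WT, limma without a filter on low values put it at 1.30 with an adjusted p of 0.124, and DESeq2 gave 1.43 with no adjusted p. Against the mean of V2 and V3, limma without the filter gave 1.18 (adjusted p = 0.291) and DESeq2 1.30 (adjusted p = 0.205), so only edgeR passed there.

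*Axl* was low in BMDMs, at 141, 164 and 118 normalised counts in B6 WT, 159, 157 and 132 in V1, 166, 144 and 285 in V2, and 102, 92.7 and 156 in V3. The groups overlapped, and V2 replicate 3 was the highest. V2 stood above V3 by 0.73 ± 0.24 on the log2 scale, which did not pass in limma (adjusted p = 0.111) and passed in DESeq2 (0.76, adjusted p = 0.0436). *Gas6* ranged from 32795 to 44355 over the 12 libraries, *Pros1* from 1089 to 1321 and *Adam17* from 4155 to 4987. Their differences from B6 WT lay between -0.07 (*Adam17* in V3) and 0.15 (*Gas6* in V3) on the log2 scale, and none passed. *Tub* and *Tulp1* had 0 reads in each of the 12 libraries, where a count of 0 allows up to 3 reads, or 0.117 to 0.18 CPM. This limit covers counting error only.

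**Figure D4:**
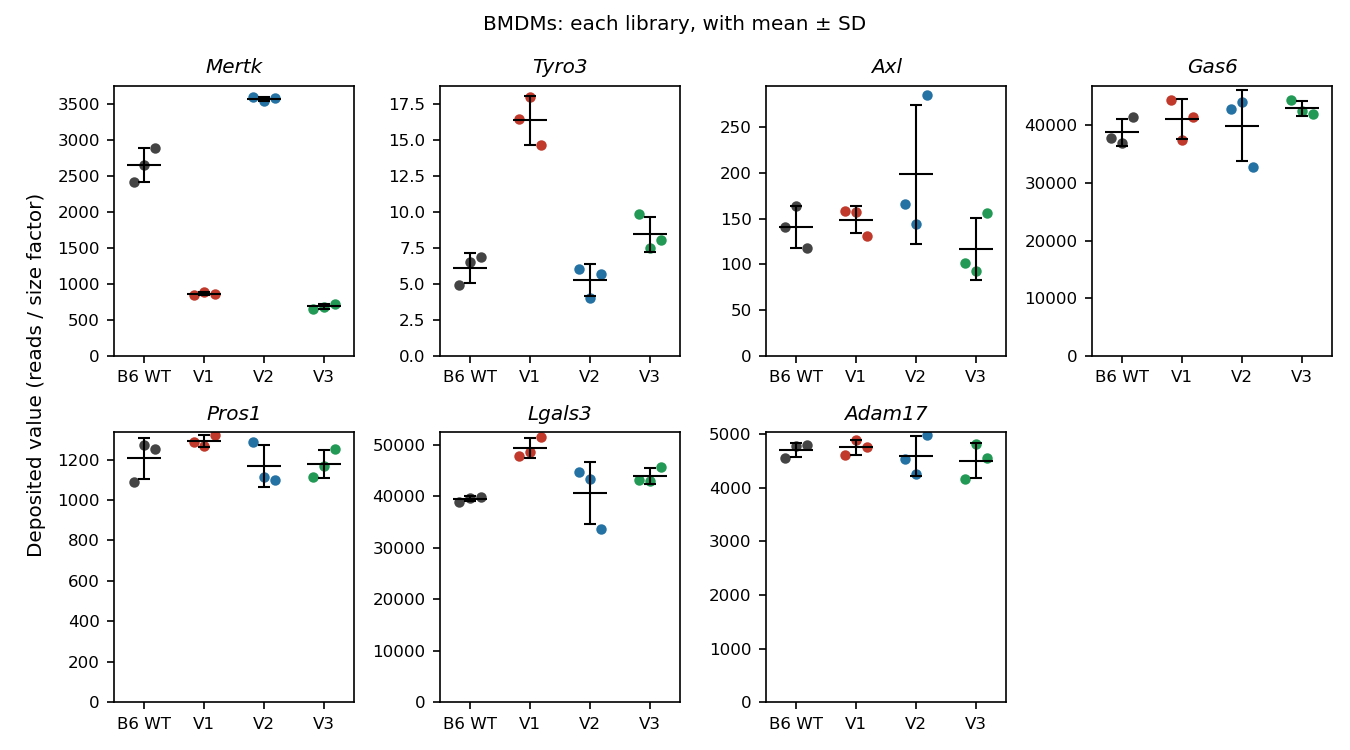
Normalised counts (vertical axes, reads divided by size factor, from 0) of 7 of the 9 genes in the 12 BMDM libraries by genotype; *Tub* and *Tulp1*, at 0 in all, are left out. Each point is a library, and lines with bars are the mean ± SD. *Mertk* is ordered V2, B6 WT, V1, V3 without overlap, and *Tyro3* is at 14.62 to 17.996 in V1 against 4.03 to 9.83 in the others.

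Per length of exon, as reads per kilobase scaled to library size (RPKM), the order of levels differed between the tissues. In B6 WT RPE the levels were 78.6 to 117 for *Gas6*, 41.4 to 155 for *Lgals3*, 25.4 to 33.0 for *Mertk*, 18.6 to 24.5 for *Tyro3*, 10.5 to 15.0 for *Axl*, 7.86 to 10.8 for *Adam17* and 3.22 to 6.13 for *Pros1*. *Gas6* and *Lgals3* overlapped, as did *Axl* and *Adam17*, and the other neighbours in this order did not. *Tulp1* (3.71 to 47.5) and *Tub* (1.53 to 15.6) spanned several of these levels. In B6 WT BMDMs *Lgals3* (1025 to 1064) was above *Gas6* (724 to 787), followed by *Adam17* (31.2 to 33.3) and *Mertk* (27.2 to 32.1), which overlapped, then *Pros1* (13.0 to 15.5), *Axl* (1.13 to 1.62) and *Tyro3* (0.0389 to 0.0533).

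Of the summed RPKM of the 3 receptors, *Mertk* made up 45.4% ± 1.99 (SD, n = 6) in B6 WT RPE and 95.4% ± 0.874 (n = 3) in B6 WT BMDMs. The sum itself was 62.0 ± 3.44 RPKM in B6 WT RPE and 35.0 ± 2.95 in V1, where *Mertk* and *Tyro3* were both lower. It was 71.1 ± 9.32 in V2 and 41.4 ± 9.35 in V3 (n = 3 each). These sums are of RNA and include *Mertk* reads from the deleted alleles. By Western blot, the study detected no MERTK protein in V2 or V3 tissues, RPE among them, and found a comparable reduction in V1. By flow cytometry it found MERTK diminished in BMDMs of the knockouts. In V1 RPE *Axl* made up 31.0% to 52.5% of the sum, against 16.2% to 25.4% in B6 WT, on an RPKM of 15.5 ± 2.75 against 12.9 ± 1.89. The *Axl* share was 32.0% to 40.1% in V3 RPE, on an RPKM of 14.4 ± 2.08. In V2 RPE it was 15.5% to 24.4%, on an RPKM of 14.5 ± 1.61. In BMDMs the sum was 31.3 ± 2.42 RPKM in B6 WT, 11.3 ± 0.328 in V1, 42.7 ± 1.68 in V2 and 8.84 ± 0.709 in V3.

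**Figure D5:**
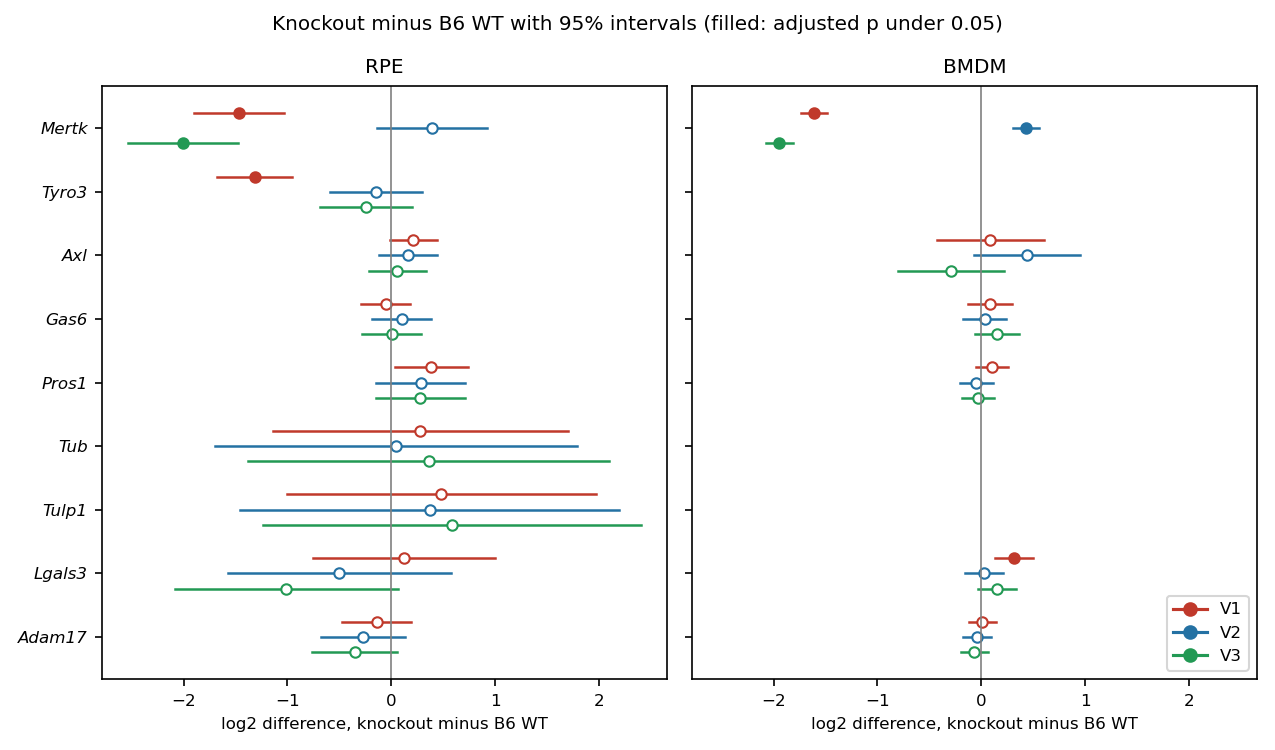
Log2 difference of each knockout from B6 WT (horizontal axes) with 95% intervals, for RPE (left) and BMDMs (right). Colours are V1, V2 and V3, and filled points have a limma adjusted p under 0.05. *Mertk* is filled in V1 and V3 in both tissues and in V2 in BMDMs, *Tyro3* in V1 RPE and *Lgals3* in V1 BMDMs; genes with a mean under 10 have no point.

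The knockout effects were then compared between the tissues, as an interaction in edgeR's quasi-likelihood model over all 30 libraries. The effect of V1 on *Tyro3* differed by -2.69 on the log2 scale, RPE minus BMDMs (edgeR, adjusted p = 0.00165), since *Tyro3* was lower in V1 RPE and higher, at a few reads, in V1 BMDMs. It was the only one of the 7 genes measured in both tissues to pass for V1, beside 0.158% of all genes. The limma interaction put it at -2.61 (95% interval -3.17 to -2.05, adjusted p = 9.37e-06). For V2 and V3, 0 of the 7 genes passed in edgeR, beside 0.0431% and 0.0192% of all genes. At an unadjusted p under 0.05 the edgeR count was also 0 for V2 and for V3, and at an adjusted p limma and DESeq2 gave 0 as well. The limma interval for *Tyro3* in V3 ran from -1.27 to -0.05 (adjusted p = 0.822). The difference in the *Mertk* effect was 0.19 for V1, -0.01 for V2 and 0.05 for V3 in edgeR. The limma intervals for *Mertk* ran from -0.45 to 0.74 in V1, -0.68 to 0.60 in V2 and -0.70 to 0.58 in V3. *Lgals3* in V3 differed by -1.23 (edgeR, adjusted p = 0.95), and with RPE replicates 1 to 3 alone by -1.63 (adjusted p = 0.018), where *Adam17* in V3 also passed at -0.46 (adjusted p = 0.0136) and in V2 at -0.41 (adjusted p = 0.0472).

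*Tyro3* (chr2:119797733-119818104, plus strand, GRCm38) lies on the same chromosome as *Mertk* (chr2:128698956-128802894, plus strand). Among the 5 nearest tested protein-coding genes on each side of *Tyro3*, 1 of 10 passed in V1 RPE, beside 0.388% of all genes. This was *Itpka*, an inositol trisphosphate kinase gene upstream of *Tyro3* (chr2:119742337-119751263), at 2.00 ± 0.36 on the log2 scale (limma, adjusted p = 0.0139). *Pla2g4b*, at -1.74, and *Pla2g4e*, at 2.44, were the extremes of the 10, and their adjusted p-values were 0.14 and 0.421. In V1 BMDMs, where 7.07% of all genes passed, 1 of 10 neighbours of *Tyro3* passed, *Tmem87a*, at 0.25 (limma, adjusted p = 0.0487). Around *Mertk*, 0 of 10 neighbours passed in V1 RPE by limma, with 2 of them at an unadjusted p under 0.05. In V1 BMDMs 2 of 10 passed: *Bcl2l11*, which encodes the pro-apoptotic protein BIM, at 0.46 (adjusted p = 4.02e-04), and *Bub1*, a spindle checkpoint kinase gene, at -0.29 (adjusted p = 0.0326). V1 differs from B6 WT in the deletion, the cassette and the 129P2 segment at once, and these cannot be told apart.

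The RefSeq promoter of *Tyro3* (GRCm38.p6, chr2:119799264-119799563, plus strand, 250 bases before to 50 after the start) is shown because *Tyro3* was the gene whose difference in V1 differed between the tissues. It has 73.3% G or C and lies within the GENCODE bounds of *Tyro3* given above. The sequence is that of the reference genome, and the sequence in V1 was not examined. GGGCGG (the GC box, searched on both strands, overlaps counted) is in capitals and occurs 6 times; 35.7% of 32851 promoters of this length hold it.
*Tyro3* promoter: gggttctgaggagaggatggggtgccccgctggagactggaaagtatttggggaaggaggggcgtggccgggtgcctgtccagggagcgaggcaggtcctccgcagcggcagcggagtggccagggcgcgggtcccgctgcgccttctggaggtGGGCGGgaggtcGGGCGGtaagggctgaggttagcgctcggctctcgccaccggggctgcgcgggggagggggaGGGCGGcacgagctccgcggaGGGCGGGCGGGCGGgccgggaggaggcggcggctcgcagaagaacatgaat

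Promoters of all 9 genes were matched. The GC box was in 8 of the 9, *Tulp1* being without it. CACGTG (E-box), CATGTG (the core of the M-box) and TAATCC (a bicoid-type homeodomain site), each searched on both strands, were in 0 of the 9, beside 7.15%, 14.2% and 7.06% of all promoters.

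The rest of the pathway was read from a list of 43 genes in 8 groups: relatives of the ligands, carboxylation of GAS6 and protein S, shedding, phosphatidylserine bridging and integrins, receptor-proximal signalling, engulfment, the type I interferon receptor and its feedback, and nuclear receptors that regulate *Mertk*. In V1 RPE, 4 of 43 passed, all higher than in B6 WT, beside the 0.388% of all genes. Among them were *Socs3*, a feedback inhibitor of cytokine receptors, at 1.52 ± 0.24 on the log2 scale (limma, adjusted p = 0.00561), *Vav1*, a guanine nucleotide exchange factor of blood cells, at 0.99 ± 0.18 (adjusted p = 0.0139), and *Lgals9* (galectin-9) at 0.74 ± 0.14 (adjusted p = 0.0239). The macrophage markers, 6 of 6 found, summed to 4906 to 9403 normalised counts in V1 RPE and to 6665 to 10832 in B6 WT. Their mean log2 level was 8.06 to 8.52 in V1 and 7.19 to 7.88 in B6 WT, so every V1 library lay above every B6 WT library on that scale. So did every V2 library (8.13, 7.98 and 8.35) and every V3 library (7.95, 8.16 and 7.94). The part of the macrophage markers in these results was not tested. The median difference over the 43 genes was -0.02 in V1, beside 0.02 over all genes. In V2, in V3, in V1 against the mean of V2 and V3, and in V2 against V3, 0 of the 43 passed in RPE by limma.

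In BMDMs 39 of the 43 pathway genes were tested. In V1, 2 passed (5.13% of the list, beside 7.07% of all genes): *Vkorc1l1*, a vitamin K epoxide reductase gene, at 0.28 ± 0.06 (limma, adjusted p = 0.0109), and *Itgb3* (integrin beta 3) at 0.32 ± 0.08 (adjusted p = 0.0369). The share was 2.56% of the list in V2, beside 4.61% of all genes, and 2.56% in V3, beside 1.17%. In V2 *Frmd8*, whose product stabilises the iRhom partners of ADAM17, was lower, at -0.21 ± 0.05 (adjusted p = 0.0298). In V3 *Itgb3* was lower, at -0.45 ± 0.08 (adjusted p = 0.0224). *Itgb3* was thus above B6 WT in V1 and below it in V3, and V1 exceeded the mean of V2 and V3 by 0.62 ± 0.07 (adjusted p = 3.22e-04). In V2 against V3 *Frmd8* was lower by 0.23 (log2 difference -0.23 ± 0.05, adjusted p = 0.0201). None of the receptor-proximal signalling or engulfment genes passed in BMDMs.

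Genes with the most similar pattern were found as a description, by the root mean square distance of the log2 differences from B6 WT. For *Mertk*, over the 6 differences of both tissues and 12513 genes, the nearest were *Lrmda* (0.845), *Cspg4* (0.889), *Angptl4* (1.04), *Slc22a4* (1.06) and *F11r* (1.07), against a root mean square of 1.47 for the differences of *Mertk* themselves. No gene came close to the whole pattern of *Mertk*: *Lrmda* was at -1.83 in V3 RPE and -2.81 in V3 BMDMs but at -0.29 and -0.22 in V1. For *Tyro3*, over its 3 RPE differences and 18832 genes, they were *Poln* (0.059), *Prlr* (0.078), *Trhde* (0.121), *Sfrp5* (0.132) and *Gm6652* (0.168).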

How the data were processed

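RNA-seq of 18 RPE and 12 BMDM libraries was analysed. After trimming with btrim and STAR alignment (GRCm38), the authors deposited a table per tissue of gene signal values, each a count divided by a DESeq2 size factor. The counter, the annotation and the tool versions are not given in the sources used here. Dividing by the smallest value above 0 of a library recovered whole reads for 100% of values within 0.001. Gene positions are from GENCODE M21, which matched 55480 of 55573 identifiers. The counting is not stated to use strand, and *Gas6*, *Tub* and *Adam17* share 34, 149 and 311 exon bases with *Tmem255b*, *Ric3* and *Iah1* on the other strand.

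Tests used limma 3.58.1 (R 4.3.3) with a mean-variance trend on log2(value + 1), which understates changes of low genes, for genes with a mean of at least 10. Interactions were tested with edgeR 4.0.16 and TMM on the recovered reads of 30 libraries. DESeq2 1.42.0 was an alternative. The pipeline was tested on simulated data: in V1 against B6 WT limma recovered 184 of 200 genes changed by 2 on the log2 scale among 18487 RPE genes, and 200 of 200 among 13444 BMDM genes.

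All 9 genes are given in every comparison; pathway genes are named when they passed, up to 8 a comparison, except 1 that is not reported here. The genes, lists and markers were chosen with earlier results of these data known. The alternatives with the RPE markers as a covariate and without V1 replicates 5 and 6 were added after seeing the data. The labels number biological replicates but do not say that a number marks a shared batch. In RPE, same-numbered V1 and B6 WT libraries deviated together in all 6 pairs (r = 0.119 to 0.724). Differently numbered libraries of one replicate set could do so as much. B6 WT replicate 1 had r = 0.665 with V1 replicate 3 and 0.612 with V1 replicate 1. B6 WT replicate 5 had r = 0.744 with V1 replicate 6 and 0.724 with V1 replicate 5. For B6 WT replicates 3 and 4 the same-numbered V1 library had the highest r of its set (0.437 and 0.119). With the number as a block the V1 differences of *Mertk* (adjusted p = 0.00658) and *Tyro3* (adjusted p = 0.00162) passed. In the other pairs of genotypes not every correlation exceeded 0.1. Reads by exon were not analysed here.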

Additional observations from a re-analysis of the deposited data

Results flagged for a closer look

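The effect of V1 on *Tyro3* differed between the tissues by -2.69 on the log2 scale, RPE minus BMDMs, in a test of the difference itself (edgeR interaction, adjusted p = 0.00165). With each of the 30 libraries left out in turn the difference stayed between -2.79 and -2.56, and the highest adjusted p was 0.0128. The BMDM side of it rests on 13 to 18 reads a library in V1 and 6 to 8 in B6 WT.

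For *Axl* in V1 RPE the lowest library (replicate 3, 1444 normalised counts) lay apart from the other 5, with a gap of 0.687 of the whole range on the log2 scale. The same library had the highest granulocyte marker sum (1045 normalised counts, against at most 113 in the other RPE libraries), the highest *Mertk* (1717) and the lowest *Gas6* (4868) of V1, and the part of these in the result was not tested. Chance flags about 1 in 20 such groups, and 18 were examined, 9 genes in each of the 2 groups of 6 libraries.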

How the results depend on the processing

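Alternatives were another pseudocount, no filter, only the groups compared, quantile or TMM scaling, array quality weights, edgeR, DESeq2, a replicate block, marker levels as covariates, replicate sets, the fold threshold of the study, and leaving out libraries. Of 2811 values of single genes under them, 2761 kept their side of the threshold, 149 of them uncalled values that changed sign. A further 21 no longer passed, 29 newly passed and 0 called values changed sign. The causes were not tested, except that fits of fewer samples have fewer degrees of freedom.

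The number of the 9 genes that passed changed as follows. In V1 RPE it went from 2 to 0 within replicates 1 to 3 and 0 within replicates 4 to 6. In V2 RPE it went from 0 to 1 with array weights (*Adam17*, -0.36, adjusted p = 0.0424). In V3 RPE it went from 1 to 0 with only the groups compared, 7 with array weights, 2 with the rod covariate, 3 with the first replicate set of B6 WT (1 to 3) and 0 with the second (4 to 6). In V1 against V2 and V3 RPE it went from 1 to 0 with only the groups compared, 4 with array weights and 0 with the fold threshold. In V2 against V3 RPE it went from 1 to 0 with only the groups compared, 2 with array weights and 3 with the rod covariate. The estimation of array weights did not fully converge in RPE. In V1 BMDMs it went from 2 to 1 under quantile scaling, TMM scaling, the 2 shallowest libraries left out and the fold threshold, through *Lgals3* in each. In V2 BMDMs the fold threshold left 0. In V1 against V2 and V3 BMDMs edgeR gave 2 and the fold threshold 0, and in V2 against V3 BMDMs DESeq2 gave 2. Between tissues, RPE replicates 1 to 3 alone gave 1 for V2 and 2 for V3, in place of 0.

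With the replicate number as a block, V2 RPE had 2 genes, *Lgals3* at -1.10 (limma, adjusted p = 0.0392) and *Adam17* at -0.51 (adjusted p = 0.0296). V3 RPE had 4 with the block, adding *Tulp1* (1.64), *Lgals3* (-1.61) and *Adam17* (-0.59), V1 against V2 and V3 RPE had 3, and V1 BMDMs had 1, *Lgals3* having an adjusted p of 0.0792. The block changed no other call. Numbers do not pair these samples by the correlation of their deviations.

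With each library left out in turn, the count was 1 to 2 in V1 BMDMs, 1 to 2 in V1 against V2 and V3 BMDMs (2 without V2 replicate 3, *Lgals3*) and 1 to 2 in V1 against V2 and V3 RPE (2 without V3 replicate 1, where *Mertk* was at -0.86 with an adjusted p of 0.0182). Elsewhere it did not move. Over all genes, the number that passed ran from 12 to 305 in V1 RPE, 9 to 861 in V2 RPE, 3 to 12592 in V3 RPE, 17 to 5444 in V1 against V2 and V3 RPE and 5 to 9811 in V2 against V3 RPE. In BMDMs it ran from 561 to 2766 in V1, 69 to 1182 in V2, 77 to 1693 in V3, 95 to 209 in V1 against V2 and V3 and 87 to 619 in V2 against V3. Between tissues it ran from 33 to 130 for V1, 9 to 274 for V2 and 4 to 1374 for V3. Low counts limited *Tyro3* in BMDMs, at 4 to 18 reads a library.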
